A study of Mus musculus with 24 samples.

Results

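The aorta of ATAD3A knock-in mice given β-aminopropionitrile (KI-BAPN) was compared with the aorta of untreated wild-type mice (WT), the normal state in this series. The comparison was chosen by the genotype and treatment labels and takes 6 KI-BAPN and 6 WT libraries, 12 of the 24 RNA-seq libraries in all. Per the labels' protocols the mice were males, 3 weeks old when treatment began, and BAPN was given at 0.5% (w/v) in the drinking water for 28 days, while WT controls drank regular water. RNA was enriched with oligo(dT) beads. The other groups are WT on BAPN (WT-BAPN, n = 7) and knock-in mice on regular water (KI, n = 5). The labels used here do not say which construct, promoter or cell type carries the knock-in. KI-BAPN and WT differ in genotype and in treatment at once, so the parts of the 2 factors cannot be told apart within this contrast alone.

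BAPN blocks lysyl oxidases, the enzymes that cross-link collagen and elastin, and in young rodents it weakens the aortic wall and can lead to dissection. ATAD3A is an ATPase of the mitochondrial inner membrane that takes part in nucleoid organisation, cristae structure and contacts with other organelles. Heat shock proteins are chaperones that keep other proteins folded, and their genes are switched on by heat shock factors that bind repeated NGAAN units in promoters.

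Smooth muscle genes mark the tissue as labelled. Myh11, the smooth muscle myosin heavy chain, lay between 2521 and 10200 CPM in WT and between 2046 and 7992 CPM in KI-BAPN. CPM values are counts scaled to a common library size with edgeR's TMM factors. Totals were 13127645 to 25725459 counts in WT and 17952806 to 26490651 in KI-BAPN. One WT library, replicate 5, stood apart: its median distance from the other WT libraries, the root mean square difference in log2 CPM, was 1.79, against 0.628 to 0.771 for the other 5. KI-BAPN replicates 3 and 6 were the farthest of their group from WT, at 1.39 and 1.07.

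Atad3a, the targeted gene, was high in every KI-BAPN library. Its level in WT was 30.2 CPM at the lowest, 39.1 at the median and 61.4 at the highest, and in KI-BAPN it was 231, 555 and 1038 CPM. The groups did not overlap, and KI-BAPN replicate 3 was the lowest of its group. The means were 40.2 ± 11.4 and 587 ± 262 CPM (SD, n = 6 each), a ratio of 14.6 (exact two-sided permutation test p = 0.00216, the smallest that 6 against 6 libraries allow). The log2 change was 3.87 ± 0.31 (SE; edgeR quasi-likelihood test, adjusted p = 1.56e-07). In the same fit Atad3a was 4.75 higher in KI than in WT on the log2 scale and 0.27 lower in WT-BAPN.

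Across the transcriptome, 14216 genes were tested with edgeR and 313 had a Benjamini-Hochberg adjusted p under 0.05, which is 2.2% of those tested. Of these 153 were higher in KI-BAPN (1.08% of the genes tested) and 160 were lower (1.13%). Atad3a alone had an adjusted p under 0.01. The median log2 change was 0.89 among the higher genes and -1.04 among the lower genes, and 59 and 82 of them lay beyond 1 log2 unit. Over all genes tested the median log2 change was -0.03. P-values here measure the spread between libraries, because the labels list separate samples and do not say more about their origin.

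The number of called genes depended strongly on single libraries. Without WT replicate 5 it was 1016 of 14098 genes (7.21%), 506 higher (3.59%) and 510 lower (3.62%), and 285 of the 313 genes were called in both fits with the same direction. Without KI-BAPN replicate 2 it was 3, without replicate 3 it was 27, and without the other KI-BAPN or WT libraries it lay between 71 and 687. A fit of the 12 compared libraries alone called 4 genes, and the same fit less WT replicate 5 called 470. Against WT-BAPN, which differs from KI-BAPN by genotype only, 1 gene of the 14216 was called (0.00703%), Atad3a, with 1983 genes at an unadjusted p under 0.05 in edgeR, against 2978 for KI-BAPN against WT.

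**Figure D1:**
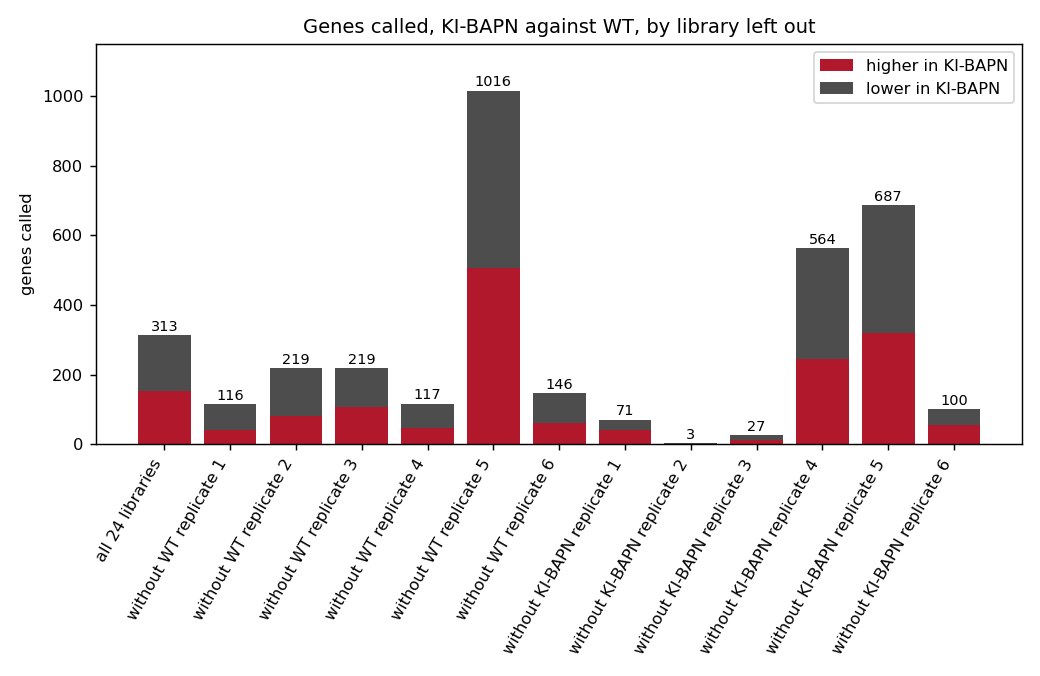
Bars give the number of genes called by edgeR (adjusted p under 0.05; vertical axis, a count starting at 0) for KI-BAPN against WT, split into higher and lower genes, with all 24 libraries and with each of the 12 compared libraries left out in turn. The count runs from 3 without KI-BAPN replicate 2 to 1016 without WT replicate 5.

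By overall distance the 2 groups were near the spread within each. The median distance between a KI-BAPN and a WT library was 0.857, between 2 WT libraries 0.77 and between 2 KI-BAPN libraries 0.892. Without WT replicate 5 the distance between groups was 0.815 and that within WT 0.639. KI-BAPN libraries lay 0.846 from WT-BAPN libraries.

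By count, cytosolic chaperone genes held the most falls of the gene lists described. With all libraries the airway epithelium (8 of 12) and skeletal muscle (6 of 8) lists held a larger share. Without WT replicate 5 they held 2 of 9 and 0 of 7. The heat shock list was chosen with earlier results of these data known, so its count is a description and not a test. Of 20 heat shock genes tested, 10 fell and 0 rose (background 1.13% lower), and all 20 fitted values were below 0. Their median log2 change was -1.10, against -0.03 over all genes. Without WT replicate 5 the median was -1.19 and 13 fell (background 3.62% lower). Summed over the list, heat shock transcripts were 9094 CPM at the lowest, 16750 at the median and 25680 at the highest in WT, and 2959, 4116 and 9461 CPM in KI-BAPN. Only WT replicate 5, the lowest WT library, and KI-BAPN replicate 5, the highest of its group, overlapped.

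The upstream stretches of 3 chaperone genes that are described next are shown because they hold the unit bound by heat shock factors. They come from RefSeq on GRCm38.p6, end before the annotated start and read 5′ to 3′ on the gene's strand. Capitals mark paired units, spelled GAANNTTC or TTCNNGAA, where runs that overlap are joined. Hspb1 is at chr5:135887777-135887854 (+), Dnaja4 at chr9:54699444-54699539 (+) and Hspe1 at chr1:55088034-55088101 (+).
Hspb1: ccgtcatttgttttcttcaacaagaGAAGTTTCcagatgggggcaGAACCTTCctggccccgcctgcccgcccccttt
Dnaja4: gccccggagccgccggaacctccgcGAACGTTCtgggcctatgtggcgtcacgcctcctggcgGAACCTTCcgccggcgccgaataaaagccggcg
Hspe1: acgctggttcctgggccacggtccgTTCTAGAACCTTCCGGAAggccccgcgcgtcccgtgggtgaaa

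The matches lie within 89 to 117 bases before the start of Hspb1, 44 to 90 before that of Dnaja4 and 71 to 89 before that of Hspe1, which shares a 2-way promoter with its neighbour Hspd1. Of 15 heat shock list members with a promoter entry, 7 held a paired unit on either strand in the 250 bases upstream: Dnaja1, Dnajb4, Fkbp4, Hspa1a, Hspa1b, Hspb1 and Hsph1. Over all 27025 genes with an entry the share was 14.5%, and over the 11176 of them that were tested it was 12.2%. Hspa4l and Stip1, described below, held no paired unit, and Dnaja4 held it in 1 of its 2 entries. A longer run of 3 alternating units at the same spacing was in 0 of the 15 and in 0.514% of all genes, while the stretch shown for Hspe1, which is no member of that list, holds one; the paired unit was chosen after that result. A match is a description of the letters and not a bound site.

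Hspb1 encodes HSP27, a small chaperone that also binds actin in smooth muscle. It was 624 CPM at the lowest, 1979 at the median and 3420 at the highest in WT, and 85.8, 199 and 821 CPM in KI-BAPN. WT replicate 5 was the lowest WT library and KI-BAPN replicate 5 the highest of its group, and the groups overlapped through these alone. It fell by 2.76 ± 0.52 on the log2 scale (SE; edgeR adjusted p = 0.0162), and the value was -2.95 without WT replicate 5.

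Hspa4l, a nucleotide exchange factor of the HSP70 family, separated the groups in full, which the rule for naming the largest falls required. It was 74.6, 88.3 and 108 CPM in WT (lowest, median, highest) and 18.5, 22.3 and 49 CPM in KI-BAPN. Its log2 change was -1.63 ± 0.28 (edgeR adjusted p = 0.0129).

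Dnaja4, an HSP40 co-chaperone that is no member of the list, was 22.6, 29.4 and 55.4 CPM in WT and 3.56, 5.84 and 14.8 CPM in KI-BAPN. No library crossed over, as the same rule required. KI-BAPN replicates 4 and 5 were the highest of their group, as they were for Hspa4l, Hspb1 and Stip1. Dnaja4 fell by 2.20 ± 0.37 on the log2 scale (edgeR adjusted p = 0.0129). Stip1, which hands clients from HSP70 to HSP90, ran from 172 to 497 CPM in WT and from 55 to 199 CPM in KI-BAPN, a log2 change of -1.66 ± 0.31 (adjusted p = 0.0162).

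Hsp90ab1, the constitutive cytosolic HSP90, was picked after its values were seen. It was 1383 to 2844 CPM in WT and 584 to 1239 CPM in KI-BAPN with no overlap, a log2 change of -1.11 ± 0.24 (edgeR adjusted p = 0.0231). Other members of the list were also chosen after their values were seen. The stress-inducible HSP70 genes Hspa1a and Hspa1b had fitted values of -2.44 and -2.57 that did not pass (adjusted p = 0.10 and 0.11). In the same fit Hspa8 (-1.91), Hsp90aa1 (-1.64), Dnaja1 (-1.46), Ahsa1 (-1.07), Hspb8 (-1.06) and Fkbp4 (-1.03) fell.

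The same chaperone genes were also low in the other 2 groups of the series, which are compared with the same 6 WT libraries and so are not separate evidence. The heat shock list had a median log2 value of -1.20 in WT-BAPN against WT and -0.93 in KI against WT. KI-BAPN differed from WT-BAPN by a median of -0.01, and for Hspb1 by 0.33 ± 0.47 (SE; edgeR adjusted p = 0.80). Without KI-BAPN replicate 2 none of the 20 passed in edgeR, with adjusted p of 0.0538 for Hspb1 and Stip1 and 0.0506 for Hspa4l and Dnaja4, while the fitted values were -2.67, -1.59, -1.56 and -2.13. Without replicates 2, 3 and 6 the Hspb1 value was -2.15 and none of the 20 passed.

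**Figure D2:**
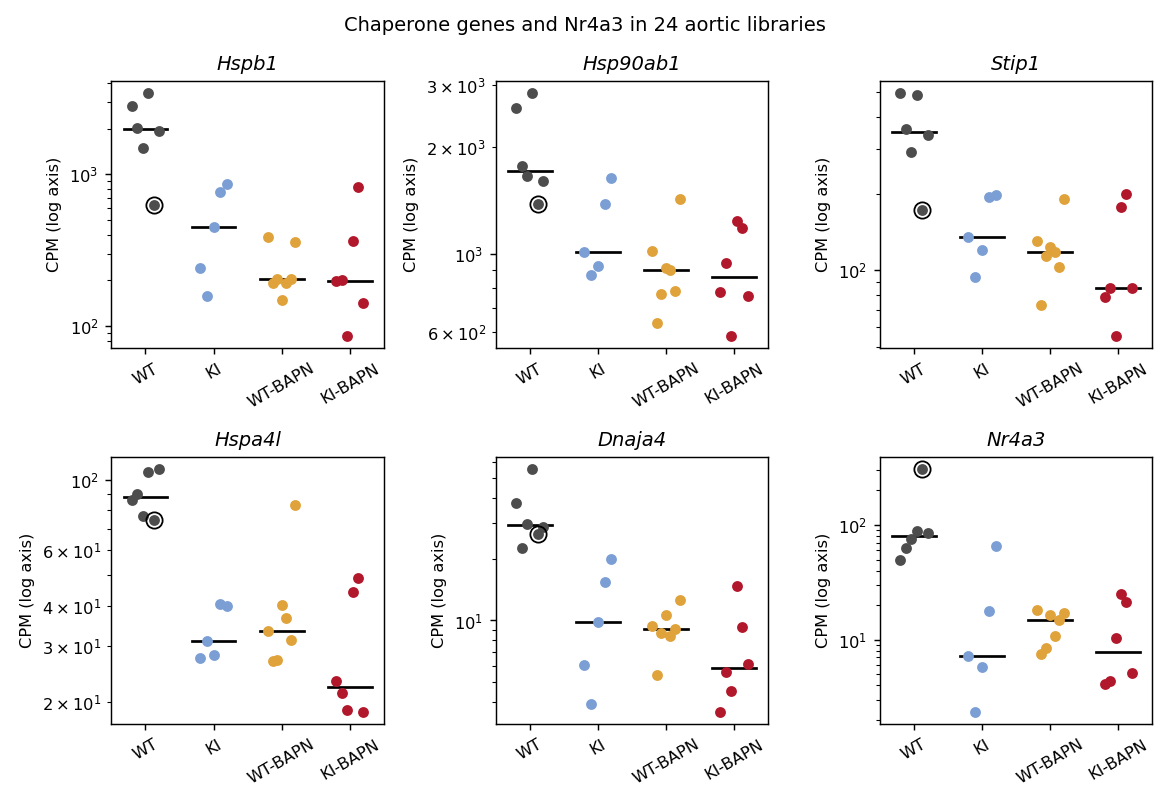
Each point is 1 library, plotted as CPM on a log axis for 5 chaperone or co-chaperone genes and Nr4a3 in WT, KI, WT-BAPN and KI-BAPN; black lines are group medians and the ring marks WT replicate 5. For Hspa4l, Dnaja4, Hsp90ab1 and Nr4a3 all 6 KI-BAPN points lie below all 6 WT points, which the naming rule required for all but Hsp90ab1.

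Other protein folding machines moved with them in part. Hspd1, the mitochondrial HSP60, ran from 191 to 430 CPM in WT and from 82.2 to 178 CPM in KI-BAPN without overlap, and fell by 1.06 ± 0.28 on the log2 scale (edgeR adjusted p = 0.0452). Its partner Hspe1 was -0.88 ± 0.30 (adjusted p = 0.0979) with all libraries and passed without WT replicate 5 (-0.98, adjusted p = 0.0494). Of the 18 mitochondrial chaperones and proteases tested only Hspd1 passed with all libraries (background 2.2%), and the list median was -0.12.

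Of 8 subunits of TRiC, the cytosolic chaperonin that folds actin and tubulin, 1 fell, Cct3, by 0.89 ± 0.22 (edgeR adjusted p = 0.0329), and all 8 fitted values were below 0 with a median of -0.42. This list was put together after the values were seen. It held 3 falls without WT replicate 5 (background 3.62% lower, and 1.13% with all libraries).

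A few fast-responding genes fell as well. Of 23 immediate early genes tested, 3 fell and 0 rose (background 1.13% lower), with a median log2 change of -0.76. Leaving out WT replicate 5, the count was 7 (background 3.62% lower) and the median -0.82. Nr4a3, an orphan nuclear receptor, was 50, 80.3 and 308 CPM in WT and 4.11, 7.8 and 24.9 CPM in KI-BAPN (lowest, median, highest). WT replicate 5 was far above the other WT libraries, which ended at 88.4. All WT values lay above all KI-BAPN values, as the naming rule required. Nr4a3 fell by 3.26 ± 0.68 on the log2 scale (edgeR adjusted p = 0.02), and the value was -2.64 without that library.

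Ier3, a stress-induced survival gene, fell by 1.06 ± 0.27 (edgeR adjusted p = 0.038), and Zfp36, which speeds decay of cytokine mRNAs, fell by 1.16 ± 0.31 (adjusted p = 0.0466). Fos, an AP-1 subunit chosen after its values were seen, was -1.57 and did not pass (adjusted p = 0.20). Of the 16 genes of the integrated stress response tested, only 1 passed (background 2.2%). This was Atf4, its central transcription factor, at -1.08 ± 0.23 (edgeR adjusted p = 0.02). Its range was 195 to 435 CPM in WT and 91.4 to 204 CPM in KI-BAPN. Ddit3 (-0.70) and Ppp1r15a (-1.05) did not pass with all libraries and did without WT replicate 5 (adjusted p = 0.0171 and 0.0224).

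By the naming rule the largest falls also took in genes outside these lists. Sgk1, a glucocorticoid- and salt-regulated kinase, was 130, 247 and 382 CPM in WT and 39.3, 88 and 126 CPM in KI-BAPN, a log2 change of -1.53 ± 0.38 (edgeR adjusted p = 0.0366). Maff, a small Maf transcription factor, was 42.1 to 68.6 CPM in WT and 12.7 to 28.2 CPM in KI-BAPN, and fell by 1.52 ± 0.35 (adjusted p = 0.0271). Both separated the groups in full, as the rule required. Bend7 fell by 1.36 ± 0.27 and Fhad1 by 2.68 ± 0.56. Without WT replicate 5, its highest library at 21.4 CPM, the Fhad1 value was -1.83.

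Ablim1, an actin-binding LIM protein gene named after its values were seen, had little spread within each group. It was 253, 268 and 294 CPM in WT and 115, 130 and 174 CPM in KI-BAPN. The log2 change was -0.99 ± 0.17 (edgeR adjusted p = 0.0129), a ratio of means of 0.503. In the same fit it was -1.20 in KI and -0.91 in WT-BAPN against the same WT libraries.

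Cyp2a5 and Bpifa1 were also among the largest falls, and both were by far highest in WT replicate 5, the library with airway markers. Bpifa1, a secreted airway protein, was 9680 CPM there and 1.57 to 41.3 CPM in the other WT libraries. In KI-BAPN it ran from 0 to 0.942 CPM. Cyp2a5, a cytochrome P450 of liver and nasal and lung epithelium, was 1173 CPM in that library, 0.23 to 6.25 CPM in the others and at most 0.0987 CPM in KI-BAPN, so no fold is given for it.

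The rises were smaller. Echdc3, an enoyl-CoA hydratase family member, was 3.77, 4.55 and 5.48 CPM in WT and 6.27, 10.8 and 21.3 CPM in KI-BAPN. KI-BAPN replicate 2 was the highest, and the groups did not overlap. Its log2 change was 1.44 ± 0.28 (edgeR adjusted p = 0.0164).

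H1f0, the linker histone of resting cells, was 49.4, 75.3 and 77.4 CPM in WT and 98.6, 156 and 406 CPM in KI-BAPN. KI-BAPN replicate 6 was the highest of its group. H1f0 rose by 1.43 ± 0.28 on the log2 scale (edgeR adjusted p = 0.017). Btc, betacellulin, a ligand of the EGF receptor, was 2.35 to 7.6 CPM in WT and 9.02 to 22.7 CPM in KI-BAPN, and rose by 1.40 ± 0.31 (adjusted p = 0.0239).

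Kcnd1, a voltage-gated potassium channel, was 1.36, 2.19 and 3.08 CPM in WT and 3.59, 5.56 and 9.07 CPM in KI-BAPN, with replicate 3 the highest. It rose by 1.38 ± 0.27 (edgeR adjusted p = 0.0177), beside 1.21 in WT-BAPN and 0.42 in KI against the same WT libraries.

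Other rises by the rule were Lpar4 (1.39), a lysophosphatidic acid receptor, Dipk1b (1.38), Rarres1 (1.14), a retinoid-responsive gene, Hacd4 (1.13), an enzyme of very long chain fatty acid synthesis, and Accs (1.11). All 9 rises separated the groups in full, as the rule required. Over all genes tested 0.746% were higher and 0.858% lower with no overlap. For none of these 9 did KI-BAPN differ from WT-BAPN beyond the threshold. The calls of the 9 rises and 9 falls described depended on the libraries and the fit. In all, 0 of the 18 passed in edgeR without KI-BAPN replicate 2, 6 without replicate 3, 8 without replicate 1 and 11 without replicate 6. Leaving out replicate 4 or 5 left 18 and 17, and leaving out 1 WT library left 13 to 18. With the 12 compared libraries alone 1 of 17 passed, and 17 of 17 did when WT replicate 5 was left out too. The naming rule had itself required a call without that library. With adipocyte, skeletal muscle and airway scores as covariates 0 of 18 passed. In DESeq2 16 of 18 passed, and in limma voom 16 of 18. None of the 18 changed direction under the alternatives run.

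**Figure D3:**
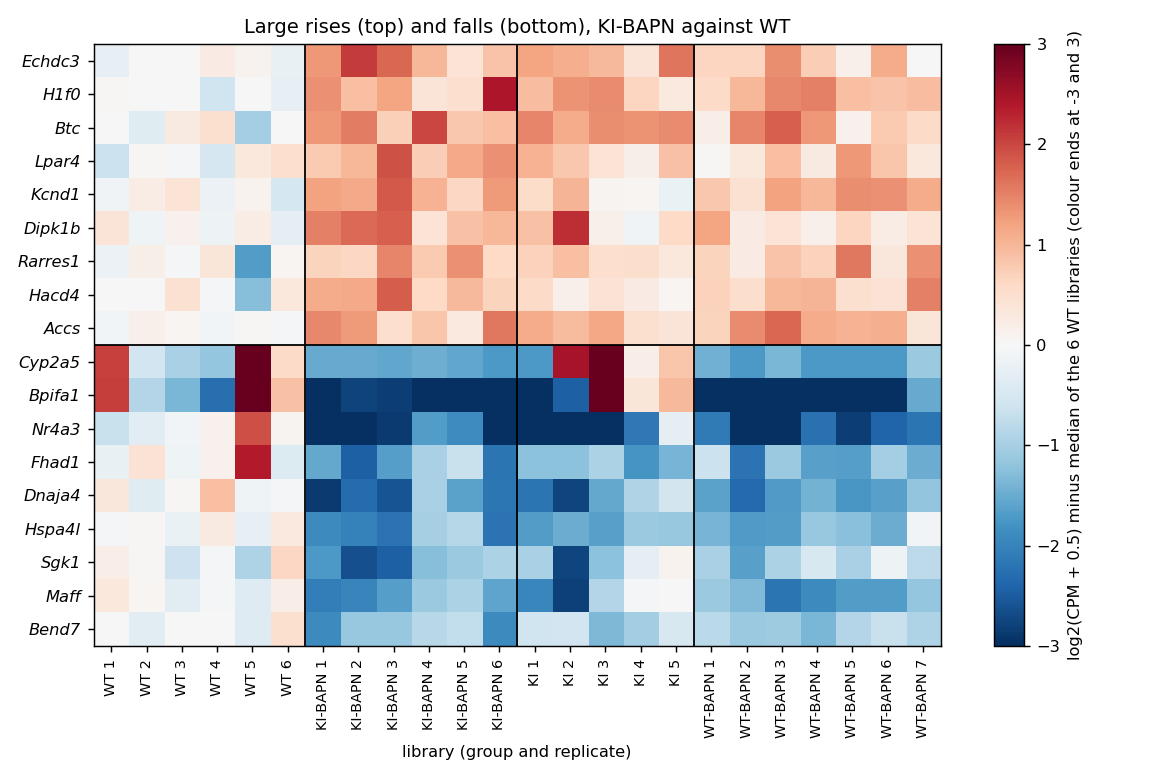
Colour gives log2(CPM + 0.5) minus the median of the 6 WT libraries for 9 large rises (top) and 9 large falls (bottom) in all 24 libraries, WT and KI-BAPN first; colour ends at -3 and 3. The rises are red in all 6 KI-BAPN columns, as the naming rule required. For Cyp2a5, Bpifa1, Nr4a3 and Fhad1 the WT replicate 5 column stands above the other WT columns.

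In the extracellular matrix, the tissue BAPN acts on, few genes passed. Over all genes tested 2.2% did, so few calls in lists this short are near that share. Of 19 fibrillar and network collagens 0 passed, with a median log2 change of 0.35 and 17 fitted values above 0. Col1a1, the main fibrillar collagen chain, was 357, 1167 and 1639 CPM in WT and 853, 1674 and 3685 CPM in KI-BAPN, which overlapped widely (0.82 ± 0.43, edgeR adjusted p = 0.28). Col8a1, a collagen of injured vessels, owed its fitted value of 3.15 ± 0.99 (adjusted p = 0.0805) largely to KI-BAPN replicate 3 at 491 CPM, and without that library it was 0.93.

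None of the 5 lysyl oxidase genes passed (background 2.2%), and their fitted values ran from -0.57 to 0.10. Lox itself, the enzyme family BAPN inhibits, was 84.5, 459 and 644 CPM in WT and 240, 375 and 906 CPM in KI-BAPN; it was chosen after its values were seen. The log2 value of 0.10 ± 0.43 turned to -0.12 without WT replicate 5. Eln, elastin, was likewise chosen. It was 253, 4847 and 9794 CPM in WT and 3580, 5015 and 16630 CPM in KI-BAPN (0.73 ± 0.60, edgeR adjusted p = 0.51). WT replicate 5 was the lowest library for both genes, and KI-BAPN replicates 1 and 5 were the highest of their group. The 17 elastic fibre genes had a median of 0.42 (0.21 without WT replicate 5), and 0 passed.

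Among 21 genes of collagen folding and hydroxylation, 1 fell (background 1.13% lower). P4ha1, a catalytic subunit of prolyl 4-hydroxylase, was 108, 292 and 357 CPM in WT and 52.8, 76.4 and 195 CPM in KI-BAPN. WT replicate 5 was the only WT library inside the KI-BAPN range. The log2 change was -1.45 ± 0.35 (edgeR adjusted p = 0.0322). Without WT replicate 5 it was -1.62, P4ha2 fell too (-1.09, adjusted p = 0.014) and P4ha3 rose (3.11, adjusted p = 0.0417).

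Of 20 matricellular genes of injury, 1 passed (background 2.2%). This was Chad, whose value of -4.71 was -1.39 without WT replicate 5 and then did not pass (edgeR adjusted p = 0.19). Cthrc1, a secreted protein of injured and dissected arteries, was 0.645, 1.21 and 2.5 CPM in WT and 3.32, 5.62 and 72.3 CPM in KI-BAPN. The groups did not overlap, and KI-BAPN replicates 3 and 6 were the highest. It missed the threshold with all libraries (3.80 ± 1.04, adjusted p = 0.0527) and passed without WT replicate 5 (3.68, adjusted p = 0.049). Thbs2, an anti-angiogenic thrombospondin, did not overlap either and did not pass (1.03 ± 0.32, adjusted p = 0.0765). None of the 20 proteases and inhibitors passed, and their median was 0.24.

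All 22 contractile smooth muscle genes had fitted values below 0, with a median of -0.52, and none passed (background 2.2%). Cnn1, calponin, was 1622, 3315 and 4690 CPM in WT and 692, 1665 and 2856 CPM in KI-BAPN (-0.98 ± 0.34, edgeR adjusted p = 0.105). Without WT replicate 5 Cnn1 (-1.13, adjusted p = 0.0425) and Ldb3 (-1.03, adjusted p = 0.0493) fell. In these bulk samples fewer smooth muscle cells and less RNA per cell cannot be told apart. The TGF-beta pathway genes, 18 tested, gave 0 calls and a median of -0.23. With WT replicate 5 left out they gave 1 rise and 3 falls (background 3.59% higher and 3.62% lower). Tgfbr1, the type I receptor, was among the falls (-0.72, edgeR adjusted p = 0.0297).

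Immune genes gave few calls, where 2.2% of all genes tested were called. Of 21 macrophage markers 0 passed, with a median of 1.09 (1.89 without WT replicate 5, where Trem2 passed). Trem2, a receptor of lipid-handling macrophages, was 0.276, 1.01 and 2.75 CPM in WT and 1.58, 3.51 and 36.6 CPM in KI-BAPN. Replicates 3 and 6, at 36.6 and 15.5 CPM, were the only KI-BAPN libraries above 4 CPM. The summed macrophage markers ranged from 86.6 to 3406 CPM in WT, with replicate 5 the highest, and from 320 to 3104 CPM in KI-BAPN. Of 25 cytokine, chemokine and adhesion genes 1 fell (background 1.13% lower). This was Nfkbia, the inhibitor of NF-kB, by 1.15 ± 0.30 (edgeR adjusted p = 0.0429). Ccl8 (3.23) and Cxcl12 (0.82) did not pass with all libraries and were higher without WT replicate 5 (4.45 and 1.01). Over 26 alternative fits Ccl8 ran from 0.80 to 4.45 with 4 calls, and Cxcl12 from 0.44 to 1.01 with 2. The list summed to 891.1 and 1087 CPM in KI-BAPN replicates 3 and 6, the highest of their group, against 292.7 to 831.9 CPM in WT. None of 22 interferon-stimulated genes passed.

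Cell division genes had a fitted median between those of WT and WT-BAPN, but their summed CPM did not. The median sum was 260.7 CPM in WT, 228.6 in KI-BAPN and 361.2 in WT-BAPN. Only KI-BAPN replicates 3 and 5, at 348.6 and 416.9 CPM, lay above the WT maximum of 266.4 CPM. WT-BAPN replicate 7 was far the highest of its group, at 1322 CPM. Of 32 mitosis and replication genes 0 passed in KI-BAPN against WT (background 2.2%). Their median log2 value was 1.03, beside 2.46 for WT-BAPN against the same WT libraries. The median for KI-BAPN against WT-BAPN was -1.46, and none of the 32 was called there, where Atad3a alone was. Pbk, a mitotic kinase, was 0.619, 0.954 and 1.66 CPM in WT and 1.68, 2.88 and 11.2 CPM in KI-BAPN, with replicates 3 and 5 the highest (2.15 ± 0.85, edgeR adjusted p = 0.149).

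Mitochondrial and metabolic genes gave few calls, where 2.2% of all genes tested were called. Of 61 nuclear encoded subunits of oxidative phosphorylation 59 had fitted values above 0, with a median of 0.38, and 0 passed. Their summed levels were 16570 and 18260 CPM in KI-BAPN replicates 2 and 3, the libraries with the highest adipocyte markers. In the other 4 KI-BAPN libraries the sums were 6925 to 9744 CPM, against 7995 to 10100 CPM in WT. The 13 mitochondrially encoded genes had a median of -0.26, and 0 passed. Of 24 genes of lipoylation and the tricarboxylic acid cycle 0 passed, with a median of 0.16. Dbt, the lipoate-bearing subunit of the branched-chain keto acid dehydrogenase, was 18.5 to 27.3 CPM in WT and 25.5 to 49.9 CPM in KI-BAPN (0.50 ± 0.14, edgeR adjusted p = 0.0575; 0.0426 without WT replicate 5).

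Fatty acid oxidation gave 1 rise among 22 genes (background 1.08% higher), and the list median was 0.53. Eci2, an enoyl-CoA isomerase, was 36.1, 44.4 and 46.3 CPM in WT and 44.5, 64 and 81.6 CPM in KI-BAPN. Only replicate 4 of KI-BAPN lay within the WT range. The log2 change was 0.53 ± 0.14 (edgeR adjusted p = 0.0466). Hadh, which carries the third step of the cycle, reached 242 and 295 CPM in KI-BAPN replicates 2 and 3 and at most 114 CPM in the other 4 (1.16 ± 0.36, adjusted p = 0.0768). The summed adipocyte markers were 7040 and 19790 CPM in the same libraries and at most 4077 CPM in the other 4 KI-BAPN libraries, against 1489 to 5493 CPM in WT. Without replicates 2, 3 and 6 the Hadh value was 0.47, and with adipocyte, skeletal muscle and airway scores as covariates it was 0.89.

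The list of 21 genes of branched-chain amino acid breakdown was put together after the values were seen. Of these 1 rose (background 1.08% higher) and 20 had fitted values above 0. Without WT replicate 5 the count was 5 (background 3.59% higher). KI-BAPN replicates 2 and 3 were again the highest, at 1808 and 2106 CPM summed, against 1044 to 1274 CPM in the other 4 and 1013 to 1110 CPM in WT. Mccc2, a carboxylase subunit of leucine breakdown, was 9.63 to 16.4 CPM in WT and 16.4 to 40.9 CPM in KI-BAPN (1.07 ± 0.24, edgeR adjusted p = 0.0239). Lysosome genes (28, median 0.01), glycolysis genes (20, median -0.09), autophagy and mitophagy genes (24, median -0.08) and clock genes (18, median -0.13) gave 0 calls. Clock genes went both ways, from -1.045 to 1.505, with 8 above 0 and 10 below. Their sums were 1532 and 1660 CPM in KI-BAPN replicates 4 and 6. They were 754.3 to 916.4 CPM in the other 4 and 1038 to 1424 CPM in WT. Tfeb, the transcription factor of lysosome biogenesis, was 37.1 to 64.5 CPM in WT and 23.2 to 46.9 CPM in KI-BAPN (-0.42 ± 0.17, adjusted p = 0.166).

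**Figure D4:**
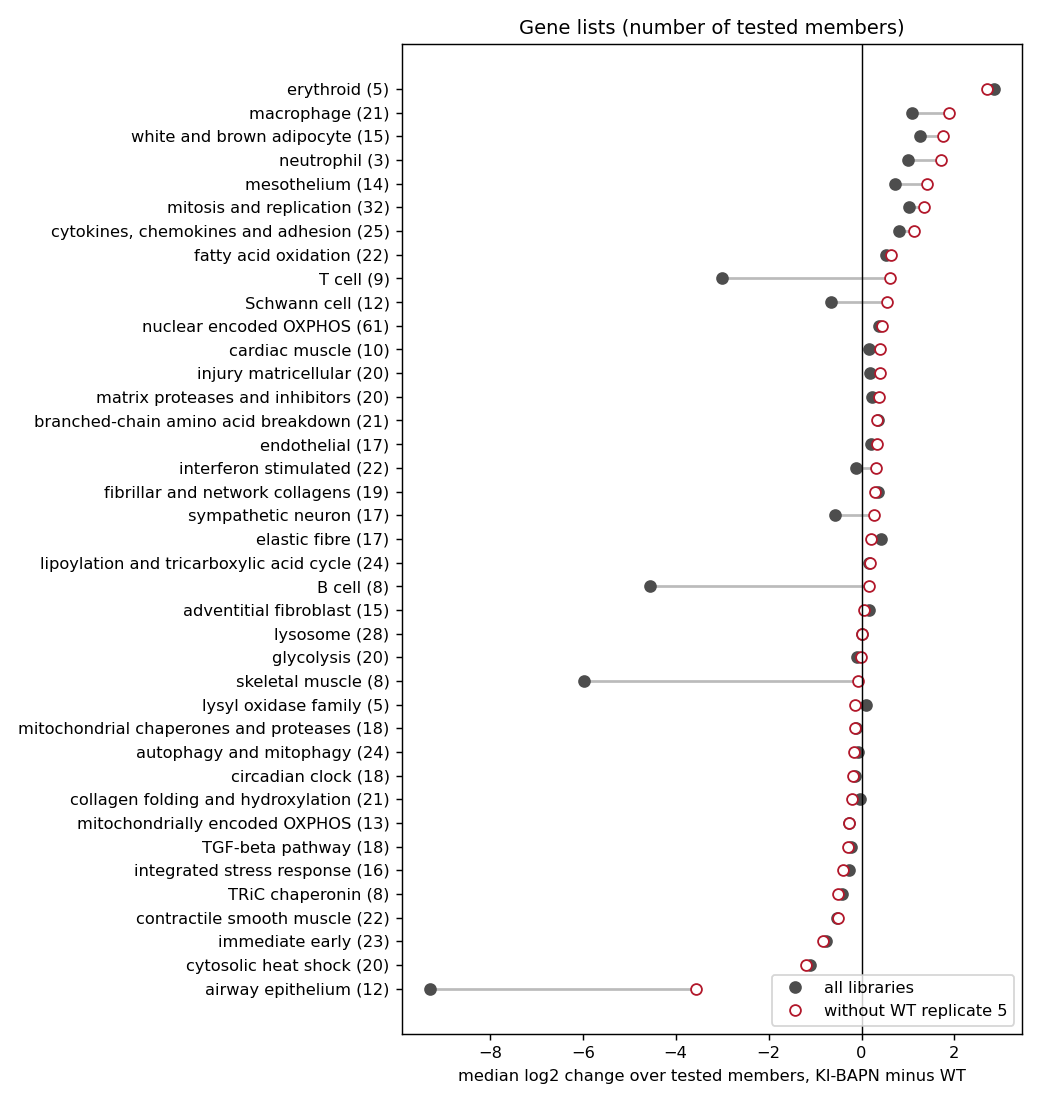
For each gene list, with its number of tested members in brackets, the horizontal axis gives the median log2 change of KI-BAPN minus WT, with all libraries (filled) and without WT replicate 5 (open). The heat shock list sits at -1.10 and -1.19, whereas the skeletal muscle list moves from -5.98 to -0.08.

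Markers of other tissues varied between the libraries compared. Over all genes tested 1.13% fell, and 3.62% without WT replicate 5. The airway epithelium list, 12 tested, held 8 falls with all libraries and 2 without WT replicate 5, which had a marker sum of 21910 CPM. Sums were 8.73 to 137.5 CPM for the remaining WT libraries and 3.48 to 36.1 CPM for KI-BAPN. The skeletal muscle list held 6 falls of 8 with all libraries and 0 of 7 without it, with sums of up to 6936 CPM in WT and 11.3 to 24.3 CPM in KI-BAPN. T cell and B cell markers gave 1 fall each, Cd5 and Cd79a (the latter outside the naming rule), and 0 without it.

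Mesothelial markers were higher in KI-BAPN replicates 2, 3 and 6, at 113.8 to 303.8 CPM summed, than in the other 3, at 19.6 to 38.2 CPM. They were 18.3 to 127.8 CPM in WT outside replicate 5. With the mesothelium score as a covariate 553 genes were called, and with adipocyte, skeletal muscle and airway scores as covariates 8 were. Erythroid markers, 5 tested, had a median of 2.86 and 0 calls. They summed to 1328, 3695 and 754.8 CPM in KI-BAPN replicates 2, 3 and 4, to 121.8 to 216.7 CPM in the other 3 and to 60.1 to 271.6 CPM in WT, and the median was 1.93 without replicate 3. Of 15 adventitial fibroblast markers 1 rose (background 1.08% higher). This was Cd248, endosialin, at 15.2 to 36.4 CPM in WT and 29.6 to 114 CPM in KI-BAPN (1.30 ± 0.29, edgeR adjusted p = 0.0239).

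**Figure D5:**
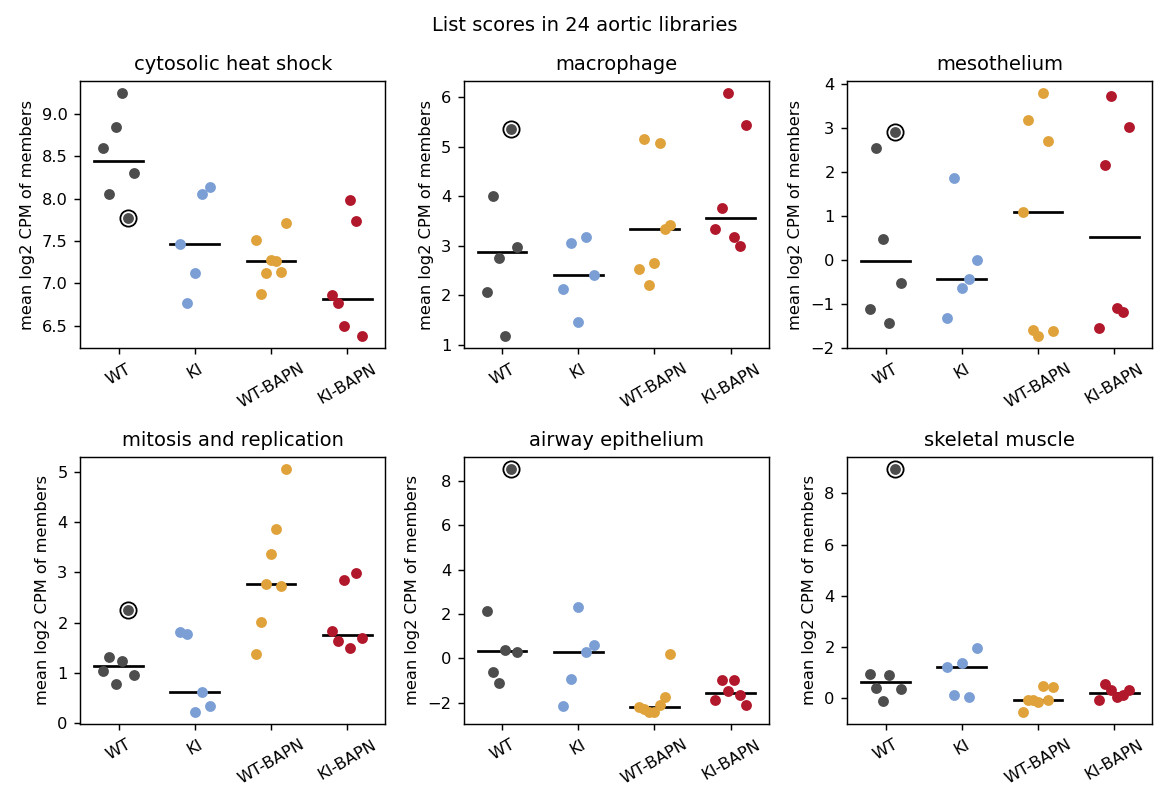
Each point is 1 library, and the vertical axis is the mean log2 CPM of a list's members in WT, KI, WT-BAPN and KI-BAPN; black lines are group medians and the ring marks WT replicate 5. WT replicate 5 lies far above all others for airway epithelium and skeletal muscle, and KI-BAPN splits into 3 high and 3 low libraries for mesothelium.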

How the data were processed

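Poly(A) RNA of 24 mouse aortas was sequenced. The deposited table holds raw read counts per gene, made by the authors and not normalized. The submitters' processing notes name HISAT2, Trim Galore, FastQC and DESeq2, and GRCm38 and mm10 as builds. Read counter, strand setting and versions: not given in the sources used here. If strand was not used, a gene and its antisense partner share reads. The deposited starts of Hspb1, Dnaja4 and Hspe1 do not match their promoters on GRCm38.p6. Which build the deposited positions follow was not settled, and they are not printed. Each of the 24 columns carries a code that 1 sample's label holds.

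Group means were fitted to all 24 libraries with edgeR 4.0.16 under R 4.3.3 (TMM factors, filterByExpr, robust quasi-likelihood F tests). This left 14216 of 21959 genes. Genes with an adjusted p under 0.05 were called. Scores are mean log2 CPM with a prior count of 2. The members and lists were chosen with earlier results of these data known, and the chaperonin and branched-chain lists after the values were seen.

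The rule named Atad3a and the 10 largest rises and 10 largest falls. These had to be called with and without WT replicate 5, with no overlap of libraries and at least 5 CPM in the higher group, leaving out predicted genes. It also named up to 3 genes per list by adjusted p. Other genes were chosen after their values were seen. Of the rises and falls 9 each are described, and the rest are not reported here. The rises and falls were drawn from 106 genes that met the rule, 56 higher and 50 lower.

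On simulated counts for 14216 genes in this comparison, the test found 43 of 100 genes with a true change of 1 log2 unit, 84 of 100 with 2, and 3 false ones. These counts were drawn independently for each gene, with no outlying library and no shared tissue differences. The real libraries have such differences, so these rates need not hold for them. Alternatives tried: a different size factor method, DESeq2 1.42.0, limma 3.58.1 (voom with quality weights), 2 other filters, the compared libraries alone, no robust estimation, replicate numbers as a block, other-tissue scores as covariates, stricter thresholds and each library left out. Fits without KI-BAPN replicates 2, 3 and 6, and of the compared libraries less WT replicate 5, were added after seeing the data. Promoter sequence is RefSeq's on GRCm38.p6.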

Additional observations from a re-analysis of the deposited data

Results flagged for a closer look

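In 23 of 168 groups of 6 checked, a single library stood far from the rest by the gap test for 1 value. Chance alone marks about 1 group in 20 when genes are picked without regard to their values. Most genes here were picked by these same values, so that rate does not apply. Different genes also share the same libraries, so the groups are not independent. Most flagged values were from WT replicate 5. There Cyp2a5 was 1170 CPM (0.23 to 6.25 in the other 5), Bpifa1 9680 (1.57 to 41.3), Nr4a3 308 (49.9 to 88.4), Fhad1 21.4 (2.67 to 5.13), Des 2570 (107 to 274), Ltf 1060 (0.414 to 4.84), Acta1 1980 (0.342 to 4.79), Tnnt3 1300 (3.37 to 5.89) and Cd5 14.2 (0.428 to 0.737).

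The same library was low for other genes, Col1a1, Lox and Eln among them. Rarres1 was 1.09 CPM (3.94 to 5.99 in the other 5), Hacd4 6.58 (16.3 to 22.9), Col1a1 357 (1040 to 1640), P4ha1 108 (235 to 357), P4ha2 48 (125 to 191), Loxl3 19.9 (86.1 to 125), Thbs2 19.6 (63.2 to 83), Tgfbr1 78.1 (204 to 279), Lox 84.5 (370 to 644) and Eln 253 (3350 to 9790).

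In KI-BAPN, replicate 3 was high for Thbs2 at 266 CPM (83.5 to 112 in the other 5) and low for Slc2a1, the glucose transporter GLUT1, at 17.5 (37.5 to 52.2). Replicate 6 had 0 for Bpifa1 (0.593 to 0.942 in the other 5). WT replicate 1 was low for Eci2 at 36.2 CPM (44.1 to 46.3 in the other 5).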

How the results depend on the processing

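The number of called genes (313 with all libraries) was 958 with DESeq2, 1584 with limma voom, 4 with the 12 compared libraries alone, 553 with the mesothelium score and 8 with adipocyte, skeletal muscle and airway scores as covariates. It was 1 at an adjusted p under 0.01, Atad3a, and 141 with at least 1 log2 unit. A stricter threshold can only lower the count, but every call other than Atad3a lay between 0.01 and 0.05. Leaving out 1 library gave 3 to 1016. Leaving out KI-BAPN replicates 2, 3 and 6 gave 1, with or without WT replicate 5 (value 1 again), and the 12 libraries less WT replicate 5 gave 470. The cause was not tested. Other size factors (362), 2 other filters (312 and 365) and no robust estimation (306) stayed within 1.5 times, and the other size factors turned no list median. The Atad3a ratio lay between 12.4 and 16.4.

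The replicate numbers did not pair the libraries: same-numbered deviations correlated at 0.392, 0.006, -0.428, 0.339, -0.34 and 0.006. With the number as a block 277 genes were called over 24 libraries and 1 over the 12, 0 of 17 rises and falls described passed in the latter, and the Atad3a ratio of 14.6 had p = 0.0312 (exact sign flips).

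Lox, whose highest value with 1 library left out was 0.242, turned from 0.10 to -0.13 (voom), -0.43 (the 3 tissue scores), -0.12 (without WT replicate 5), -0.01 (without KI-BAPN replicate 1), -0.203 (without KI-BAPN replicate 5) and -0.12 (12 libraries less WT replicate 5). Des turned to 0.026 without WT replicate 5 and KI-BAPN replicates 2, 3 and 6. Depth limits genes of a few CPM. On simulated counts, which held no outlying library, 43 of 100 changes of 1 log2 unit were recovered.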
